A study of Mus musculus with 12 samples.

Results

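The sphingomyelin and ceramide enzymes described here are 10 genes of the deposited expression table, chosen by symbol: Sptlc1, Sptlc2, Cers2, Cers5, Cers6, Degs1, Sgms1, Sgms2, Ugcg and Smpd1. All 10 of them were found among the 23849 symbols of the table. Of these, 8 averaged 1 FPKM or more across the 12 libraries and were tested, while Cers5 and Cers6 fell below that minimum and are given by their values. FPKM divides the sequenced fragments of a gene by the length of its transcript and by the mapped reads of the library, so levels of different genes can be set side by side.

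Liver RNA was sequenced from male mice of the C57BL/6J background, 8 weeks old in the series description, with 3 mice in each of 4 groups. The groups were mice treated with vehicle and collected at ZT0, mice treated with vehicle and collected at ZT12, mice treated with Libramed and collected at ZT0, and mice treated with Libramed and collected at ZT12. Zeitgeber time (ZT) counts hours from lights on, so that ZT0 is the end and ZT12 the start of the active phase of a mouse. Every group was fed a high-fat diet (HFD), so the data hold no liver from mice on a normal diet. Treatment lasted 2 weeks and, in the paper, began after 4 weeks on this diet. Whether 8 weeks was the age at the start of the diet or at collection was not settled here. The paper describes daily gavage, of the tested product or of water, shortly before the active phase began. On that schedule ZT12 livers were collected sooner after a dose than ZT0 livers. Time of day and time since a dose therefore cannot be told apart. Libramed is the name that the sample labels use for the tested product, Policaptil Gel Retard, a fiber blend that forms a gel in the gut. The labels call the 3 libraries of a group biological replicates.

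Sphingolipids are built on a long-chain base that is made in the endoplasmic reticulum from serine and palmitoyl-CoA. The base receives an acyl chain to give dihydroceramide, which is desaturated to ceramide, and ceramide is then given a phosphocholine head group to make sphingomyelin, or a glucose to make glucosylceramide, while sphingomyelinases release ceramide again. In the liver ceramides have been linked to insulin resistance in obesity, and very-long-chain ceramides are the main species that hepatocytes make.

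The libraries had the composition of liver, although Alb is listed at 0 in every library. With vehicle the hepatocyte markers summed to 34091 to 37508 FPKM at ZT0 and 34131 to 39361 at ZT12. With the product they summed to 38933 to 48095 FPKM at ZT0 and 38530 to 44448 at ZT12. The treatments thus did not overlap in this sum at ZT0 and overlapped at ZT12. Most of the sum was Apoa1, with group means at ZT0 of 22771 FPKM with vehicle and 29394 with the product. At ZT0 the means of Ttr, Cyp2e1 and Serpina1a were also higher with the product. Those of Tat (649.6 and 408.2 FPKM) and Apob (291.7 and 269.7 FPKM) were lower. The clock genes followed the time labels: Dbp and Per2 were higher and Arntl lower in all ZT12 libraries than in all ZT0 libraries. Between treatments, Dbp was higher with the product at ZT0 without overlap (8.92 ± 8.22 FPKM with vehicle, 21.9 ± 4.72 with the product, SD). So was Per2 at ZT12 (14.4 ± 2.90 and 18.8 ± 2.82). Such groups did not overlap for 15.1% of all genes at ZT0 and 13.1% at ZT12. Dbp at ZT12, Per2 at ZT0 and Arntl at both times overlapped between treatments. Summed FPKM per library ranged from 634683 to 759355. Relative depth, estimated from genes at the level of single reads, ranged from 0.707 to 1.33 of the first vehicle library of ZT0, and since few genes set each estimate these are approximate.

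The largest differences among the tested enzymes were those of Sgms2, which encodes sphingomyelin synthase 2, an enzyme that moves phosphocholine from phosphatidylcholine to ceramide at the plasma membrane and the Golgi. Its mRNA fell from ZT0 to ZT12 in mice treated with the product, by a factor of about 0.444 in group means. It stood highest in product-treated mice at ZT0 and lowest in product-treated mice at ZT12, with both vehicle groups between them. Cers2, the ceramide synthase that attaches very long acyl chains, was by far the most abundant of the enzymes and rose from ZT0 to ZT12. For the remaining 6 tested enzymes the group means differed by a factor of 1.11 to 1.47 between the highest and the lowest group.

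**Figure D1:**
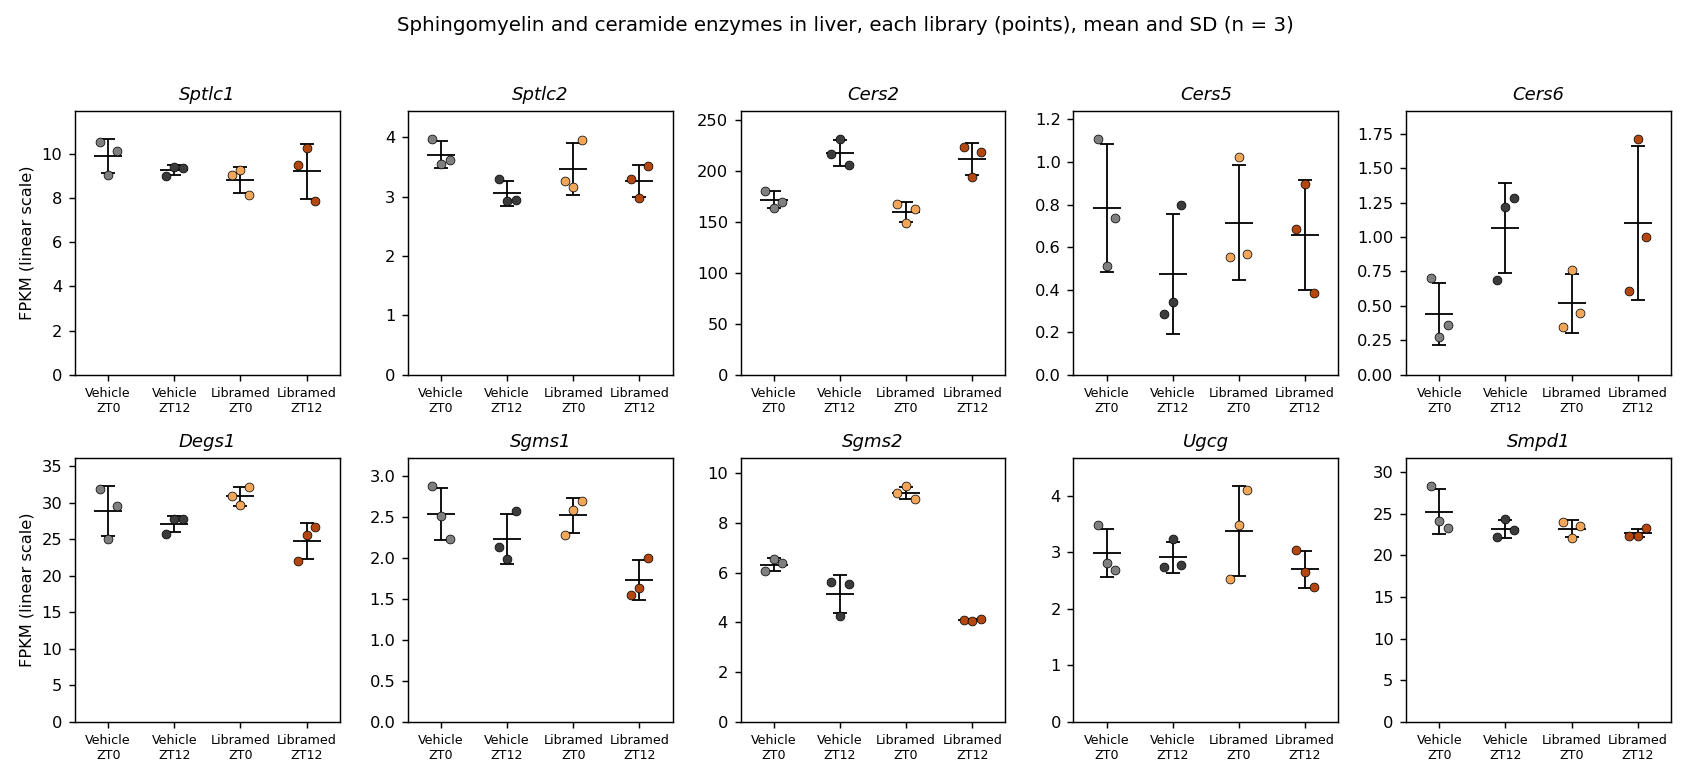
Level of each enzyme (FPKM, linear axis from 0) in each library, by treatment and time. Points are libraries, horizontal bars with whiskers are the mean and SD of 3 mice. The Sgms2 panel shows 4 groups that do not overlap, from 4.09 FPKM with Libramed at ZT12 to 9.21 FPKM with Libramed at ZT0, and in the Cers2 panel all ZT12 libraries lie above all ZT0 libraries.

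De novo synthesis starts with serine palmitoyltransferase, whose long-chain base subunits are encoded by Sptlc1 and Sptlc2. Sptlc1 (ENSMUSG00000021468.8, GENCODE vM21, mm10 chr13:53332748-53377397, minus strand) was at 9.91 ± 0.764 FPKM (SD, n = 3) with vehicle at ZT0 and at 9.27 ± 0.226 with vehicle at ZT12. In mice treated with the product it was at 8.82 ± 0.604 at ZT0 and 9.21 ± 1.24 at ZT12. The ranges of the 4 groups overlapped in every comparison of times or treatments, and the fitted differences lay between -0.15 and 0.05 on the log2(FPKM + 1) scale.

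Sptlc2 (ENSMUSG00000021036.10, chr12:87305058-87388355, minus strand) was lower in level than Sptlc1 in each group. With vehicle it was at 3.97, 3.55 and 3.61 FPKM at ZT0 and at 3.29, 2.92 and 2.95 FPKM at ZT12. These vehicle groups did not overlap, with a difference of -0.22 (SE 0.085), which did not pass adjustment over all genes (limma adjusted p = 0.157). In mice treated with the product the values overlapped, at 3.46 ± 0.433 FPKM at ZT0 and 3.27 ± 0.271 at ZT12 (SD, n = 3).

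Ceramide synthases acylate the long-chain base, and each isoform prefers acyl chains of particular lengths. Cers2 (ENSMUSG00000015714.11, chr3:95314791-95323599, plus strand) was at 180.6, 164.0 and 169.9 FPKM with vehicle at ZT0 and at 216.2, 231.2 and 205.5 FPKM with vehicle at ZT12. Mice treated with the product had 168.0, 149.1 and 162.9 FPKM at ZT0 and 223.7, 194.4 and 218.1 FPKM at ZT12. The 6 libraries collected at ZT0 reached at most 180.6 FPKM and the 6 collected at ZT12 began at 194.4 FPKM, so the times did not overlap, while the treatments overlapped at both times.

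Over both treatments Cers2 was higher at ZT12 by 0.37 on the log2(FPKM + 1) scale (SE 0.058, limma adjusted p = 0.00058), with all 6 libraries of ZT12 above all 6 of ZT0. Within the product the difference was 0.40 (SE 0.091, adjusted p = 0.0318), a call that was lost without any 1 of the 6 libraries (adjusted p from 0.055 to 0.0962). Within vehicle it was 0.34 (SE 0.085, adjusted p = 0.0503), and the change over time did not differ detectably between treatments, with an interaction of 0.06 (SE 0.120, adjusted p = 0.956). Exons of Cers2 overlap exons of Setdb1 and 6330562C20Rik on the opposite strand, and since the sources differ on whether the libraries kept the strand, its level is uncertain to that extent.

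Cers5 and Cers6 encode synthases that prefer long rather than very long acyl chains. Cers5 (ENSMUSG00000023021.15, chr15:99734881-99772885, minus strand) lay between 0.284 and 1.11 FPKM over the 12 libraries, and its groups overlapped in every comparison. Cers6 (ENSMUSG00000027035.10, chr2:68861441-69114282, plus strand) was at 0.700, 0.273 and 0.358 FPKM with vehicle at ZT0 and at 0.689, 1.22 and 1.28 FPKM with vehicle at ZT12. The product groups were at 0.349, 0.760 and 0.450 FPKM at ZT0 and at 0.607, 1.71 and 0.998 FPKM at ZT12. The ratio of the ZT12 mean to the ZT0 mean was thus 2.40 with vehicle and 2.13 with the product, yet the ranges overlapped in both. At these levels the 3 mice of a group varied widely, with a coefficient of variation of 30.7% to 59.3% for the pair against a median of 7.53% for the tested enzymes. Without the minimum level, Cers6 was called over both treatments (0.48, SE 0.135, limma adjusted p = 0.0317) but in neither treatment alone (adjusted p = 0.183 with vehicle and 0.323 with the product).

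Of the summed FPKM of the 3 ceramide synthases, Cers2 held between 98.7% and 99.6% in each library. The other 2 synthases together stayed under 1.33% in each library.

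Degs1 encodes dihydroceramide desaturase, which forms the double bond of ceramide. Degs1 (ENSMUSG00000038633.5, chr1:182275772-182282804, minus strand) was at 28.8 ± 3.44 FPKM (SD, n = 3) with vehicle at ZT0 and at 27.1 ± 1.14 with vehicle at ZT12. In product-treated mice it was at 30.9, 29.6 and 32.2 FPKM at ZT0 and at 22.0, 25.6 and 26.7 FPKM at ZT12. The vehicle groups overlapped and the product groups did not, with a difference of -0.31 (SE 0.094, limma adjusted p = 0.0724) in the latter. With median-ratio scaling or quantile normalization it passed adjustment (adjusted p = 0.0475 and 0.0406). The 2 time differences were not shown to differ, since their interaction was -0.23 (SE 0.140, limma adjusted p = 0.821). Over both treatments the time difference of Degs1 was -0.20 (SE 0.075, limma adjusted p = 0.0655). In the alternatives its limma adjusted p ranged from 0.0120 to 0.132.

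Sphingomyelin synthase is encoded by Sgms1, whose product sits in the Golgi, and by Sgms2. Sgms2 (ENSMUSG00000050931.7, chr3:131318985-131491411, minus strand) was at 6.04, 6.54 and 6.37 FPKM with vehicle at ZT0, or 6.32 ± 0.251 (SD, n = 3). With vehicle at ZT12 it was at 5.62, 4.27 and 5.55 FPKM, or 5.15 ± 0.757. With the product it was at 9.19, 9.47 and 8.98 FPKM at ZT0, or 9.21 ± 0.247, and at 4.08, 4.05 and 4.13 FPKM at ZT12, or 4.09 ± 0.0375. None of the 4 groups overlapped with a group that differed from it only in time or only in treatment. The gap between the treatments was 2.44 FPKM at ZT0, where the product stood higher, and 0.144 FPKM at ZT12, where it stood lower.

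From ZT0 to ZT12, Sgms2 fell by 1.01 on the log2(FPKM + 1) scale in mice treated with the product (SE 0.072, limma adjusted p = 0.000959), the 19th smallest p among 9806 genes, and every ZT12 library was under every ZT0 library. The same call was made under every alternative setting, with adjusted p between 9.4e-06 and 0.0113. In mice treated with vehicle the difference was -0.26 (SE 0.110, limma adjusted p = 0.186), and -0.15 without the second vehicle library of ZT12 (adjusted p = 0.422). The difference between these 2 time differences was -0.75 (SE 0.125), the 2nd smallest p of the interaction among the genes tested. It did not pass adjustment over all genes (limma adjusted p = 0.337), except when the second vehicle library of ZT12, with the 4.27 FPKM given above, was left out (-0.85, adjusted p = 0.0484).

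Between the treatments, Sgms2 was higher with the product at ZT0 by 0.48 (SE 0.078, limma adjusted p = 0.264), the 13th smallest p at that time, in 3 of 3 libraries. At ZT12 it was lower with the product by a difference of -0.26 (SE 0.107, limma adjusted p = 0.729), in 3 of 3 libraries. Neither difference passed adjustment, and since time and treatment comparisons share libraries, the high values with the product at ZT0 enter both. Over both times together the treatment difference was 0.11 (SE 0.122, limma adjusted p = 0.779), as the differences at ZT0 and ZT12 had opposite signs. Treatment groups that did not overlap at either time, in opposite directions, were found for 58 of the 9806 genes (0.591%), and Sgms2 was the only one among the enzymes.

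Sgms1 (ENSMUSG00000040451.18, chr19:32122727-32389714, minus strand) was lower in level than Sgms2 in all 12 libraries. With vehicle it was at 2.54 ± 0.322 FPKM at ZT0 and 2.23 ± 0.304 at ZT12 (SD, n = 3). With the product it was at 2.29, 2.58 and 2.70 FPKM at ZT0 and at 1.55, 1.64 and 2.01 FPKM at ZT12, without overlap. The product groups thus lay apart in the same direction as those of Sgms2, while the vehicle groups overlapped. The time difference was -0.37 with the product (SE 0.099, limma adjusted p = 0.0549) and -0.13 with vehicle (SE 0.111, adjusted p = 0.499). The difference with the product passed in limma with median-ratio scaling (adjusted p = 0.0455) and in a fit of all 12 libraries (adjusted p = 0.0369). Over both treatments Sgms1 fell by 0.25 (SE 0.079, limma adjusted p = 0.0310), a call that was lost without the minimum level (adjusted p = 0.0546). It was also lost when any 1 of 6 libraries was left out, namely the first of vehicle at ZT0, the second of vehicle at ZT12, the second or the third of the product at ZT0, or the first or second of the product at ZT12 (adjusted p from 0.0591 to 0.0682). Exons of Sgms1 overlap those of 2700046G09Rik on the opposite strand.

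Of the summed FPKM of Sgms1 and Sgms2, the share of Sgms2 was 71.3% ± 3.24 (SD, n = 3) with vehicle at ZT0 and 69.6% ± 2.41 with vehicle at ZT12. Among product-treated mice it was 78.5% ± 1.62 at ZT0 and 70.3% ± 2.68 at ZT12. The share was thus highest in the group where Sgms2 itself was highest, and the other 3 groups overlapped one another.

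Endothelial and stellate cell markers were lower at ZT12 than at ZT0 over both treatments, and in bulk liver fewer cells of a type and less RNA per cell cannot be told apart. The 5 endothelial markers summed to 6.84 to 9.96 FPKM with vehicle at ZT0, 3.96 to 5.48 with vehicle at ZT12, 8.08 to 9.97 with the product at ZT0 and 5.08 to 6.26 with the product at ZT12. All 4 of the tested ones fell over both treatments at a limma adjusted p under 0.05, where 1353 of all 9806 genes tested fell. None of the 5 endothelial markers was at 0. The 5 stellate cell markers summed to 30.1 to 56.7, 27.9 to 44.2, 46.8 to 60.7 and 23.1 to 40.9 FPKM in the same order. Of the 4 tested ones, 3 were lower over both treatments, and none of the 5 was at 0. Most of this sum was Dcn, at a mean of 36.8 FPKM. The median time difference of the tested endothelial markers was -0.46 with vehicle and -0.45 with the product, and that of the stellate markers -0.31 and -0.46, while Sgms2 was at -0.26 and -1.01. The median interaction was 0.02 for the endothelial and -0.19 for the stellate markers, against -0.75 for Sgms2. Their part in the differences of Sgms2, Sgms1 and Degs1 was not tested. The 7 macrophage markers held 0 calls in the 5 tested, where 29.7% of all genes were called for time over both treatments. Their median time difference was -0.33 with vehicle and 0.07 with the product. Over the 12 libraries the sum of a list had an r with Sgms2 of 0.736 for endothelial, 0.660 for stellate and -0.0206 for macrophage markers. It was 0.571 for pancreas, 0.41 for cholangiocyte, 0.322 for blood, 0.267 for hepatocyte and -0.343 for fat markers. These r describe points that share 4 groups, and none was computed with group means removed.

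Ugcg encodes glucosylceramide synthase, the first step towards glycosphingolipids. Ugcg (ENSMUSG00000028381.8, chr4:59189257-59222833, plus strand) was at 2.99 ± 0.426 FPKM with vehicle at ZT0 and 2.91 ± 0.274 with vehicle at ZT12 (SD, n = 3). The product groups were at 3.38 ± 0.791 FPKM at ZT0 and 2.70 ± 0.326 at ZT12. Its groups overlapped in every comparison, and the spread of the product group at ZT0, from 2.53 to 4.10 FPKM, was the widest relative to the mean of any tested enzyme.

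Smpd1 encodes acid sphingomyelinase, the lysosomal enzyme that returns ceramide from sphingomyelin. Smpd1 (ENSMUSG00000037049.9, chr7:105554360-105558389, plus strand) was at 25.3 ± 2.70 FPKM with vehicle at ZT0 and 23.2 ± 1.07 with vehicle at ZT12 (SD, n = 3). With the product it was at 23.2 ± 1.05 FPKM at ZT0 and 22.7 ± 0.506 at ZT12. It had the narrowest range of group means among the enzymes, a factor of 1.11, and its groups overlapped in every comparison.

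**Figure D2:**
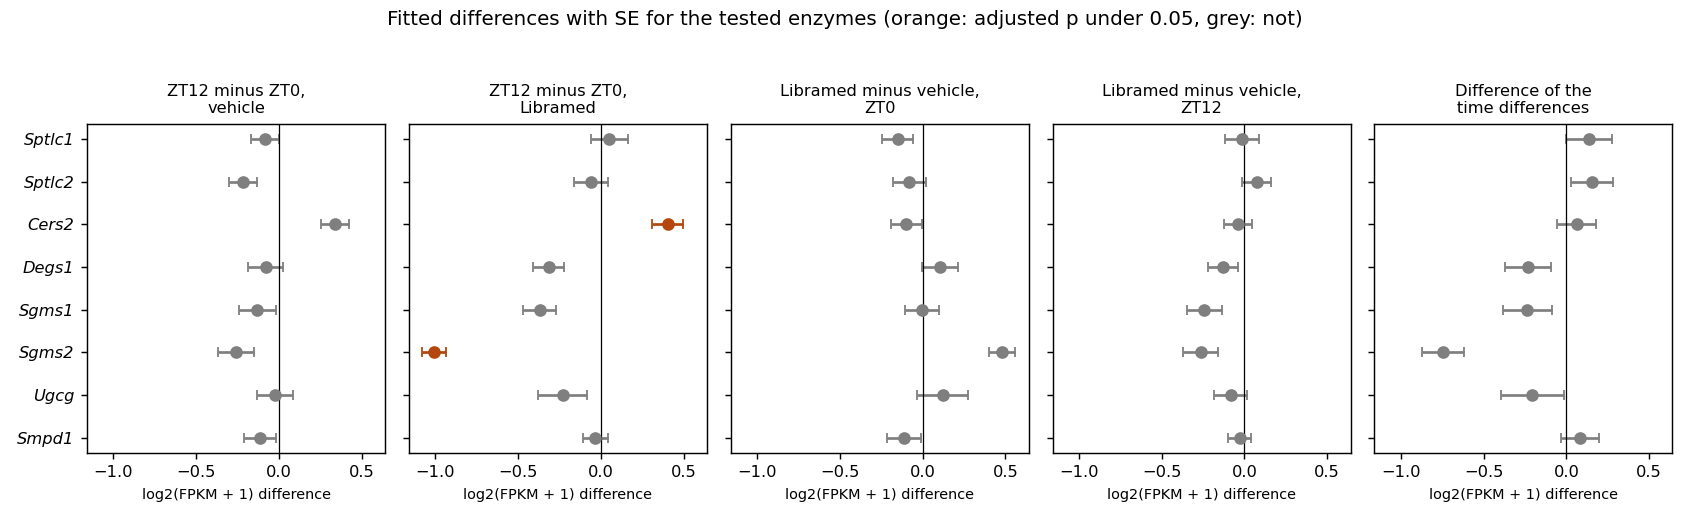
Fitted differences on the log2(FPKM + 1) scale (points) with SE (whiskers) for the 8 tested enzymes in 5 comparisons. Orange points have a limma adjusted p under 0.05 over 9806 genes, which holds for Sgms2 (-1.01) and Cers2 (0.40) in the time comparison with Libramed, and grey points do not.

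By level, Cers2 came first with a mean of 190.3 FPKM over the 12 libraries, above 97.1% of the 17066 symbols with any expression. Degs1 (27.9 FPKM) and Smpd1 (23.6 FPKM) followed, with ranges that overlapped each other. Sptlc1 (9.30 FPKM) overlapped Sgms2 (6.19 FPKM), which had the widest range relative to its mean of the tested enzymes, from 4.05 to 9.47 FPKM. Sptlc2 (3.37 FPKM), Ugcg (2.99 FPKM) and Sgms1 (2.26 FPKM) came next, each overlapping its neighbor, and Cers6 (0.783 FPKM) and Cers5 (0.657 FPKM) came last and overlapped. The highest Cers6 value, 1.71 FPKM, was above the lowest Sgms1 value, 1.55 FPKM.

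In the comparison of times with vehicle, 0 of the 8 tested enzymes had an adjusted p under 0.05, while 10.4% of all genes tested did, and 2 enzymes (Cers2 higher, Sptlc2 lower) had an unadjusted p under 0.05 in limma, as did 27.4% of all genes. With the product 2 were called, Cers2 higher and Sgms2 lower, against 12.4% of all genes, and 4 had an unadjusted p under 0.05, against 29.2%. Over both treatments 3 were called, Cers2 higher and Sgms1 and Sgms2 lower, against 29.7% of all genes, and 4 had an unadjusted p under 0.05, against 41.0%. The symbols were listed with results of these data known, and which values bore on the choice is not recorded, so these counts describe where the enzymes stand among all genes and are not independent evidence.

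No enzyme was called in a comparison of treatments. At ZT0, at ZT12 and for the interaction, 0.0% of all genes had a limma adjusted p under 0.05, and 0.0204% (2 genes) did so for treatment over both times. At an unadjusted p under 0.05, 1 of the 8 enzymes, Sgms2, passed at ZT0 (9.23% of all genes), at ZT12 (6.74%) and for the interaction (6.63%), and 0 passed over both times (10.1%). The Cyber-T test also called 0 of the 8 at either time. The median difference of the 8 enzymes was -0.10 over time with vehicle, -0.15 over time with the product, -0.04 between treatments at ZT0 and -0.06 at ZT12. The medians of all genes tested were 0.01, 0.01, -0.02 and -0.01.

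The groups did not overlap for 3 of the 10 enzymes over time with vehicle (33.2% of the genes tested) and for 4 over time with the product (34.9%). Between treatments 1 of the 10, Sgms2, did not overlap at ZT0 (15.1%) or at ZT12 (13.1%). With 6 libraries of each time, 2 of the 10 did not overlap (13.3%), Cers2 higher and Sgms2 lower at ZT12.

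The windows of 250 bases before each RefSeq start site (19 windows for the 10 enzymes, GRCm38.p6, the build of mm10) were searched for letters known from clock, lipid and general promoter control. The E-box CACGTG, the sequence bound by CLOCK and BMAL1, which reads the same on both strands, was in 4 of the 19 windows, and in 6.02% of the 32851 windows of all promoters. It was found once in each of Sgms2, Cers2, Degs1 and Cers6. These sites are shown because the E-box was found in windows of both enzymes called over time with the product, Sgms2 and Cers2, which moved in opposite directions. Each is given in 30 bases, read 5′ to 3′ on the strand of the gene, with the E-box in capitals.
Sgms2, chr3:131489142-131489171, minus strand, 117 bases before the start site: ggcccaggttagCACGTGaaatattgttgt
Cers2, chr3:95315049-95315078, plus strand, 129 bases before the start site: cgccctgcggggCACGTGccacccgccccg
Degs1, chr1:182282221-182282250, minus strand, 43 bases before the start site: gggagcctcaatCACGTGgtccagtcagct
Cers6, chr2:68861407-68861436, plus strand, 22 bases before the start site: cggccaggctgcCACGTGacaggcgaggcg

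Of the enzymes with an E-box, the level at ZT12 was lower for Sgms2 and higher for Cers2, so the letters were found with both directions. In GENCODE vM21 the Degs1 site lies in an annotated exon of Degs1, the Cers2 site in an exon of 6330562C20Rik on the opposite strand, and the Sgms2 and Cers6 sites in no exon. Sgms2 has several RefSeq start sites, and which of them the liver used cannot be read from gene-level values. The D-box core TTANNTAA, searched on both strands, was in 1 of the 19 windows, that of Sgms2 which also holds the E-box, and in 5.43% of all promoters. The half-site AGGTCA, bound by ROR and REV-ERB factors of the clock among other nuclear receptors, was searched on both strands. It was in 6 of the 19 windows, of Sgms2, Sgms1, Cers2 and Smpd1, and in 14.0% of all promoters, so it too was found for both Sgms2 and Cers2. The CRE TGACGTCA and the sterol element TCACNCCAC were in 0 of the 19 windows, and in 1.55% and 1.05% of all promoters. The GC box GGGCGG was in 10 of the 19 windows and in 32.7% of all promoters, and CCAAT in 8 of the 19 windows and in 33.8% of all promoters, all searched on both strands. The GC box and CCAAT were also found for both Sgms2 and Cers2, so this trait is not particular to the E-box.

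The genes whose level followed Sgms2 most closely over the 12 libraries on the log2(FPKM + 1) scale were Zscan2 (Pearson r = 0.937), Fbxo21 (r = 0.935), Tnfaip8l1 (r = 0.931), Rab32 (r = 0.927) and Ednrb (r = 0.924). These r describe points that share 4 groups, and with group means removed they were 0.322, 0.496, 0.766, 0.510 and 0.326. Fbxo21 had group means of 20.3 and 16.7 FPKM with vehicle at ZT0 and ZT12 and of 28.3 and 12.8 FPKM with the product. Its groups thus had the same order as those of Sgms2, which choosing genes by their r favors. Cers6 had the next widest spread of group means on the log2(FPKM + 1) scale, though its ratio of the highest to the lowest group mean, 2.49, was above that of Sgms2, 2.25. It was followed by Pcyt1a (r = 0.923), the rate-limiting enzyme of phosphatidylcholine synthesis, and by Gpd1l (0.918), Dopey2 (0.918), Med14 (0.903) and Atp6v0d2 (0.897). With group means removed these r were 0.876, 0.919, 0.874, 0.793 and 0.803. These genes were picked for their r over the same 12 libraries. Cers6 varied widely within groups, so this choice also favors genes that follow that scatter, and the values are descriptions.

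**Figure D3:**
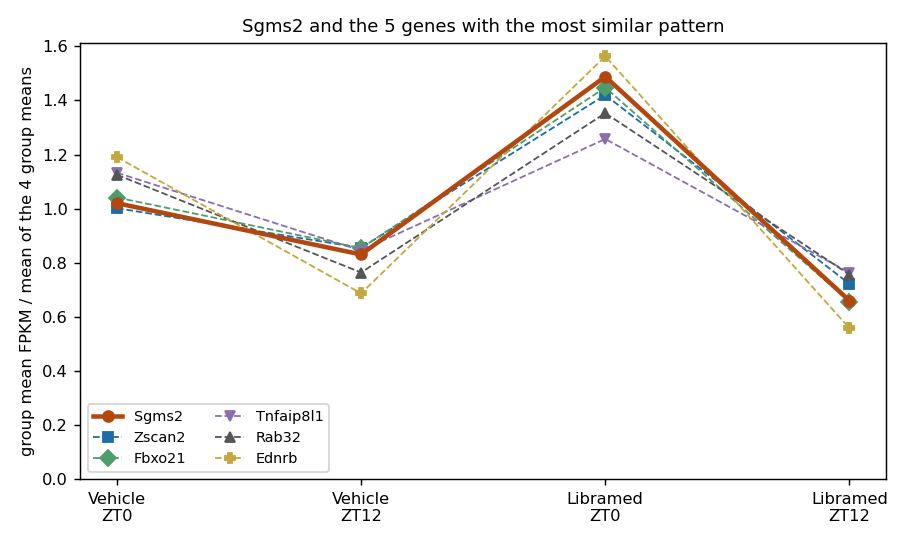
Group means of Sgms2 and of the 5 genes with the highest correlation to it over the 12 libraries, each divided by the mean of its own 4 group means (linear axis from 0, no unit). All 6 genes are highest with Libramed at ZT0 and lowest with Libramed at ZT12, an order that choosing genes by this correlation favors. Lines only join the groups of 1 gene.

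Among the enzymes, Cers2 and Sgms2 ran opposite over the 12 libraries (r = -0.865, and -0.546 with group means removed). Sgms1 and Degs1 ran with Sgms2 (r = 0.719 and 0.688), but with group means removed these were 0.268 and -0.332.

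Of 62 other genes of sphingolipid metabolism, 61 were found and 42 were tested. In the comparison of times, 5 rose and 2 fell with vehicle (10.4% of all genes tested were called in either direction), and 1 rose and 4 fell with the product (12.4%), at a limma adjusted p under 0.05. Over both treatments 9 rose and 6 fell (29.7%), and in the comparisons of treatments and the interaction 0 were called. At an unadjusted p under 0.05, 7 were higher with the product at ZT0 and 0 lower (9.23% of all genes in either direction, 335 higher and 570 lower), and 0 passed at ZT12 (6.74%), while 5 had a more negative time difference with the product (6.63%). The median time difference of the 42 genes was 0.12 with vehicle and 0.03 with the product, against 0.01 over all genes tested in each.

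The widest difference among them was in St3gal5, which encodes GM3 synthase and acts on the lactosylceramide made downstream of Ugcg. St3gal5 was at 24.7, 45.6 and 15.7 FPKM with vehicle at ZT0 and at 88.3, 106.1 and 126.9 FPKM with vehicle at ZT12. Product-treated mice had 21.4, 20.3 and 24.9 FPKM at ZT0 and 118.7, 127.0 and 142.1 FPKM at ZT12. It rose by 1.98 with vehicle (SE 0.353, limma adjusted p = 0.0201) and by 2.49 with the product (SE 0.107, adjusted p = 0.000263), and all ZT12 libraries were above all ZT0 libraries. Ugcg, which supplies the pathway, had no called difference, as given above.

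Of the 15 tested genes of glycosphingolipid synthesis and lysosomal breakdown, 3 rose over time with vehicle and 0 fell, where 551 of all 9806 genes rose. Besides St3gal5 these were Hexa (0.58), which takes part in the lysosomal breakdown of gangliosides, and the shared row of Glb1 and Tmppe (0.49). With the product 1 rose and 1 fell, against 12.4% of all genes called in either direction, and the one that fell was Arsa (-0.51), which removes sulfate from sulfatide. Psap, the precursor of the saposins and the second most abundant of the other genes with a mean of 172.0 FPKM, was at 0.24 over time with vehicle and at 0.03 with the product, neither called.

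Of the 14 tested genes of ceramide breakdown and sphingosine 1-phosphate, 2 rose and 1 fell over time with vehicle, 0 rose and 3 fell with the product, and 3 rose and 4 fell over both treatments. Over all genes tested the shares called in either direction were 10.4%, 12.4% and 29.7%. Aldh3a2 (0.82), which oxidizes the aldehyde left by sphingosine 1-phosphate cleavage, and Asah2 (0.62), a neutral ceramidase, rose over time with vehicle. S1pr1, a sphingosine 1-phosphate receptor of endothelial cells, fell by 0.47 with vehicle and by 0.63 with the product. With the product Sphk2 (-0.75), a sphingosine kinase, and Apom (-0.61), which carries sphingosine 1-phosphate in plasma and was the most abundant of the other genes at 322.7 FPKM, fell as well. Sgpl1 (-0.36), the lyase of sphingosine 1-phosphate, and Adipor1 (0.17) were called over both treatments alone. Adipor2, at a mean of 119.1 FPKM, was not called in any comparison.

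Among the regulators of the de novo steps, Ormdl2, which restrains serine palmitoyltransferase, fell by 0.46 with vehicle and was at -0.31 with the product (limma adjusted p = 0.0588). Ormdl3 (0.19) and Kdsr (0.31), the reductase that follows serine palmitoyltransferase, rose over both treatments. The transfer proteins Plekha8 (0.28) and Cptp (-0.22) were called over both treatments alone. The 4 tested genes of the sphingomyelinase group, which includes the synthase-related Samd8, held 0 calls in any comparison. Over all genes tested the shares called were 10.4% over time with vehicle, 12.4% with the product and 29.7% over both treatments. Of the 4, 1 had an unadjusted p under 0.05 in limma, Smpd2 over both treatments (0.22, adjusted p = 0.0600), as did 41.0% of all genes.

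**Figure D4:**
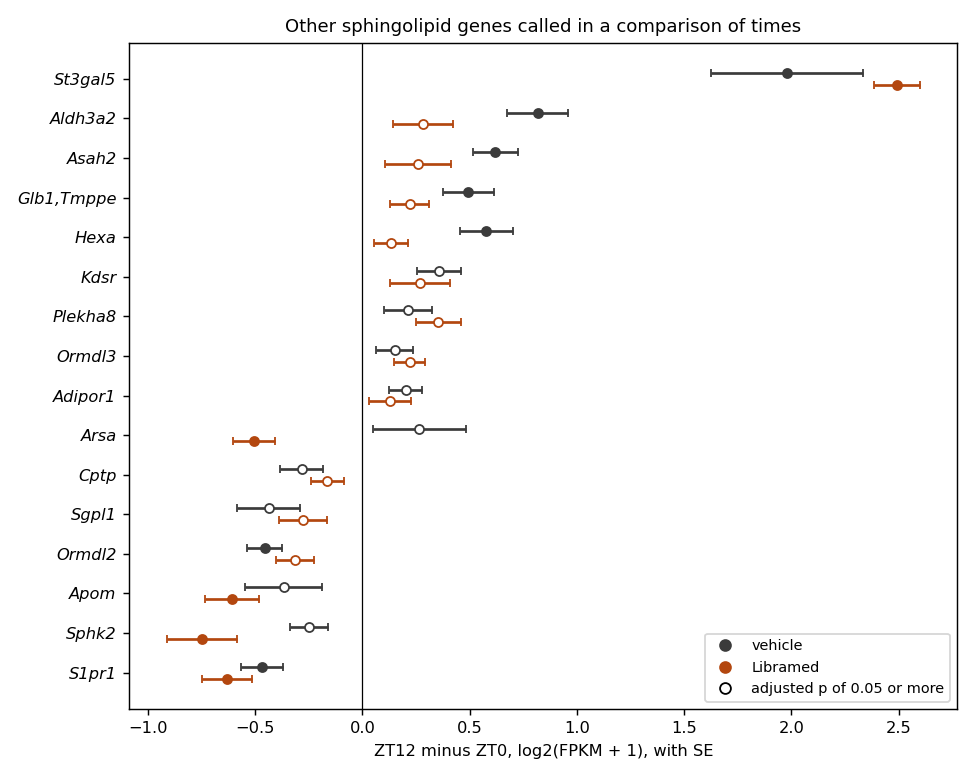
Time differences (ZT12 minus ZT0, log2(FPKM + 1), points) with SE (whiskers) for 16 other sphingolipid genes called in at least 1 comparison of times. Dark points are vehicle and orange points Libramed, filled where the limma adjusted p is under 0.05. St3gal5 lies farthest to the right in both treatments (1.98 and 2.49), and S1pr1 is filled on the left in both.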

How the data were processed

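Liver RNA of 12 mice was sequenced, 3 libraries in each of 4 groups, and groups were taken from the sample labels. The authors deposited 1 table of FPKM values per gene symbol, with no counts. The submitters' processing notes name TopHat and Cuffnorm with mm10 (GRCm38), whereas the study's methods name ELAND, stranded mRNA libraries and RPKM, and the labels name an unstranded kit, the TruSeq RNA kit v2. Because the counting is not settled, values of overlapping genes are uncertain. Of 24138 lines, 289 repeats of a symbol were dropped, keeping the line with the highest mean. Values were analysed as log2(FPKM + 1), for the 9806 symbols with a mean of at least 1 FPKM. A difference on this scale understates the change of low genes.

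Differences were fitted with limma 3.58.1 in R 4.3.3 (lmFit, eBayes with a trend), two-sided, with Benjamini-Hochberg adjustment over all genes tested and a threshold of 0.05. Comparisons within a treatment or a time used the 6 libraries compared. The interaction, the time difference over both treatments and the treatment difference over both times used all 12. The script was tested on simulated data. Replicate numbers were not taken as pairs (same-numbered deviations correlated at -0.279 to 0.341). Differently numbered libraries were not compared, so whether the numbers mark something shared was not tested. Alternatives were a pseudocount of 0.1, no minimum, a minimum mean of 5 FPKM, no trend, median-ratio scaling, quantile normalization, a replicate block, a fit of all 12 libraries, a Cyber-T test (window of 101 genes, prior weight 10), and each library left out in turn.

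The enzymes and the lists of other genes were chosen with earlier results of these data known. Named genes were the 10 enzymes, other sphingolipid genes called in any comparison or among the 5 most abundant, the 5 genes closest to each of 2 enzymes, and 3 clock genes. Smpd2, Setdb1, 6330562C20Rik and 2700046G09Rik were named outside that rule, and Smpd2 after its values were seen. The markers Apoa1, Ttr, Cyp2e1, Tat, Serpina1a, Apob and Dcn were also named after their values were seen. 1 listed gene is not reported here and is left out of the counts of that list. Cers1 was not matched, and no read depth was given, so the spread of 3 mice sets the precision. Coordinates are from GENCODE vM21 (mm10), and promoter windows and start sites from RefSeq (GRCm38.p6).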

Additional observations from a re-analysis of the deposited data

Results flagged for a closer look

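The change of Sgms2 over time differed between treatments by -0.75 on the log2(FPKM + 1) scale (SE 0.125) in a limma test of the difference itself, where its p was the 2nd smallest of 9806 genes, but it did not pass adjustment over all of them (limma adjusted p = 0.337). It was singled out because it had an unadjusted p under 0.05 in that test, as did 6.63% of all genes tested. The 2 time differences were -0.26 with vehicle and -1.01 with the product. The treatment groups stood apart at both times, higher with the product in 3 of 3 libraries at ZT0 and lower in 3 of 3 at ZT12.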

How the results depend on the processing

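The called time differences of Sgms2 kept their direction and their call in all alternatives. For time with vehicle, 1 enzyme (Cers2) instead of 0 was called with a pseudocount of 0.1, a minimum mean of 5 FPKM or a fit of 12 libraries, and 0 with any library left out. For time with the product, 1 instead of 2 was called with no minimum and with Cyber-T, 4 with median-ratio scaling (Degs1 and Sgms1 added), 3 with quantile normalization (Degs1 added) and in the fit of 12 libraries (Sgms1 added), and 1 with any library left out. Leaving out libraries gave 0 to 1 for the interaction (1 without the second vehicle library of ZT12) and 2 to 4 for time over both treatments. Over all genes the calls for time with vehicle went from 1020 to 515 with no minimum, 1539 in a fit of 12 libraries and 226 to 869 with a library left out, and for time with the product from 1212 to 639 with no minimum and 535 to 1014 with a library left out. Cyber-T called 69 genes for treatment at ZT0 and 23 at ZT12, against 0 in limma. Treatment at ZT0 gave 0 to 7 and treatment over both times 0 to 1 with a library left out. Some enzymes that were not called changed sign. With median-ratio scaling and quantile normalization these were Sgms1 at ZT0 (0.0145 and 0.024), Sptlc2 (0.013 and 0.019) and Degs1 (0.0079 and 0.0059) for treatment over both times, and with quantile normalization Sptlc1 at ZT12 (0.0038). With a library left out, time with vehicle ranged from -0.083 to 0.060 for Ugcg, and time with the product from -0.024 to 0.15 for Sptlc1 and -0.11 to 0.018 for Sptlc2. Treatment at ZT0 ranged from -0.068 to 0.062 for Sgms1, and treatment at ZT12 from -0.090 to 0.085 for Sptlc1, -0.078 to 0.023 for Cers2 and -0.059 to 0.0045 for Smpd1. The interaction of Smpd1 ranged from -0.00011 to 0.14, and time over both treatments from -0.058 to 0.019 for Sptlc1. Treatment over both times ranged from -0.031 to 0.026 for Sptlc2, -0.068 to 0.035 for Degs1 and -0.045 to 0.073 for Ugcg. The cause of these shifts was not tested.

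With the replicate number as a block, though the numbers are not known to mark pairs, 279 genes were called for time with vehicle, 709 for time with the product and 2 for treatment at ZT0. Sgms2 kept its call for time with the product (-1.01, limma adjusted p = 0.0113), and no call of an enzyme changed with the block. The limits are 3 mice per group, 1 table of FPKM without counts, and overlapping antisense exons for Cers2 and Sgms1.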
